A study of Mus musculus with 12 samples.

Results

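The genes examined here are 9 mouse genes of retinoid metabolism and signalling, taken by symbol because their products take up, carry, make, reduce, break down or sense retinoids, out of 55487 genes listed in the count table. They are Stra6, Crabp2, Rdh10, Aldh1a2, Dhrs3, Cyp26b1, Rara, Rarb and Rarg. Their expression was measured in myotubes of C2C12, an established mouse myoblast line whose cells join into multinucleated muscle fibres when serum is reduced, and both groups were differentiated for 5 days in 2% horse serum. For the next 24 h, the control group was kept in DMEM with 4% horse serum and the treated group in DMEM with 4% STEM, a solution without cells that holds the factors secreted by human embryonic stem cells during partial differentiation. Each group held 6 libraries of this 1 cell line, and libraries 1 to 6 are the controls and 7 to 12 the treated samples. STEM took the place of horse serum, so the addition of STEM and the removal of horse serum cannot be told apart. The authors describe STEM as a solution that also contains vitamins, without naming them. The retinoid content of either medium is not given in the sources used here.

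Retinoids are the derivatives of vitamin A. Cells take up retinol, oxidize it to retinaldehyde and then to retinoic acid, and retinoic acid activates nuclear receptors that bind DNA as pairs with retinoid X receptors. Retinaldehyde can also be reduced back to retinol, retinoic acid is cleared by cytochrome P450 enzymes, and in muscle precursor cells retinoic acid is known to act on the passage from dividing myoblast to myotube.

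The promoter sequences are shown first because several genes of this pathway are themselves textbook targets of retinoic acid. Pairs of retinoic acid and retinoid X receptors are known to bind direct repeats of a hexamer, with the repeat spaced by 5 bases as the classical form. RefSeq windows on build GRCm38.p6 were matched for 7 of the 9 genes, all but Crabp2 and Rdh10, giving 16 windows that run from 250 bases before to 50 bases after a transcript start. The hexamer AGGTCA, its variant AGTTCA and the further variants GGGTCA or GGTTCA were searched on both strands, as single copies and as direct repeats, and a single copy inside a repeat was counted for both. The variants GGGTCA and GGTTCA were added after the values were seen. With all 4 hexamers, a direct repeat with 5 bases between was present in 1 of the 16 windows, that of Rarb, and in 0.0974% of all 32851 windows searched. The Rarb match read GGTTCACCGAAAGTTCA and lay at bases -53 to -37 from the transcript start. With AGGTCA and AGTTCA alone, the repeat was found in 0.0396% of all windows and in 0 of these 16. A single copy of any of the 4 hexamers was found in 5 of the 16 windows, in Rara, Rarb, Rarg and Stra6, against 43.7% of all windows. Direct repeats with 1 or 2 bases between were found in 0.222% and 0.268% of all windows and in 0 of the 16. These matches describe letters in a window and were not tested for binding. The 250 bases before the start are printed 5′ to 3′ on the strand of the gene for Rarb, which holds the repeat, and for Dhrs3 and Stra6, the genes with the largest fall and the largest rise. Capitals mark a hexamer or the whole of the direct repeat, and the windows shown of Dhrs3 and Stra6 hold none.
Rarb promoter, GRCm38.p6, chr14:16575477-16575726, minus strand: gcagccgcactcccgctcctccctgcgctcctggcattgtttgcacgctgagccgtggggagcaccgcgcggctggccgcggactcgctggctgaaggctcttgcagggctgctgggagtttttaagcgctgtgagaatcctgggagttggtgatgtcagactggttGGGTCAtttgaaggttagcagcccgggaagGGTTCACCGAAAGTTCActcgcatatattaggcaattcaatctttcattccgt
Dhrs3 promoter, GRCm38.p6, chr4:144892577-144892826, plus strand: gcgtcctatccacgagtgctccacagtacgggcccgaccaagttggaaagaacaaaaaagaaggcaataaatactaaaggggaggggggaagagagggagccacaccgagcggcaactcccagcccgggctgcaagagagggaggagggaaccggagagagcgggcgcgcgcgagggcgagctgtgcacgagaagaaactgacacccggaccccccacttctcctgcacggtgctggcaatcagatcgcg
Stra6 promoter, GRCm38.p6, chr9:58128838-58129087, plus strand: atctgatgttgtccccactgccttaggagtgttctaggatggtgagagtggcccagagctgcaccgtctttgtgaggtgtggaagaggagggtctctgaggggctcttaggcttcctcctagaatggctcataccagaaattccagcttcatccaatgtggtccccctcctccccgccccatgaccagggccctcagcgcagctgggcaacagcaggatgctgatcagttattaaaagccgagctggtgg

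Depth was 13285472 to 18254882 counts per horse serum library and 14909485 to 24536264 per STEM library. Horse serum library 6 stood apart from the other libraries, at 11.2 on principal component 1 of log2 CPM (44.2% of the variance), where the STEM libraries ranged from 15.5 to 28.6 and the remaining horse serum libraries from -35.5 to -24.6, and at -53.3 on component 2. It had the lowest level among the horse serum libraries of all 12 myotube markers examined, such as Myh3 and Ckm. The summed level of these markers was 12660 CPM in library 6, 20570 to 22940 CPM in the other horse serum libraries and 17660 to 23790 CPM with STEM, a sum to which Ttn gave the most. Of the 12 myotube markers, 1 was called higher with STEM (Mymk) and 3 lower (Myh8, Casq2 and Myog), and without library 6 there were 1 higher and 7 lower. Results are therefore also given without library 6 where its value matters. CPM stands for the per-million scale, on which each gene's count is divided by its library's TMM-normalized total, and CPM per kb divides this by the exon length, so that genes can be compared with each other.

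Of the 9 genes, 7 passed the filter on low counts and were tested, each of them having passed it in the libraries of either group alone. Between STEM and horse serum, 4 of the 7 differed, with an adjusted p of at most 0.05 (edgeR quasi-likelihood test, Benjamini-Hochberg adjustment over 14175 genes), while 36.4% of all tested genes did. With STEM, Stra6 and Crabp2 rose, against 18.9% of all tested genes called higher, and Dhrs3 and Rarg fell, against 17.4% called lower. The libraries of the groups did not overlap for 3 of the 7 genes, Stra6, Crabp2 and Dhrs3, against 17.2% of all tested genes. The 9 genes were chosen with earlier results of these data known, so these shares are given as description only. Without horse serum library 6 the same 4 genes were called, beside 50.8% of all 14267 genes then tested, and the same 3 did not overlap. An exact two-sided permutation test of log2 CPM over the 12 libraries gave an unadjusted p of 0.0022 for Stra6, Crabp2 and Dhrs3, the smallest that 6 libraries against 6 allow, and of 0.0065 for Rarg. In bulk RNA, fewer cells that express a gene and less of its RNA per cell cannot be told apart.

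**Figure D1:**
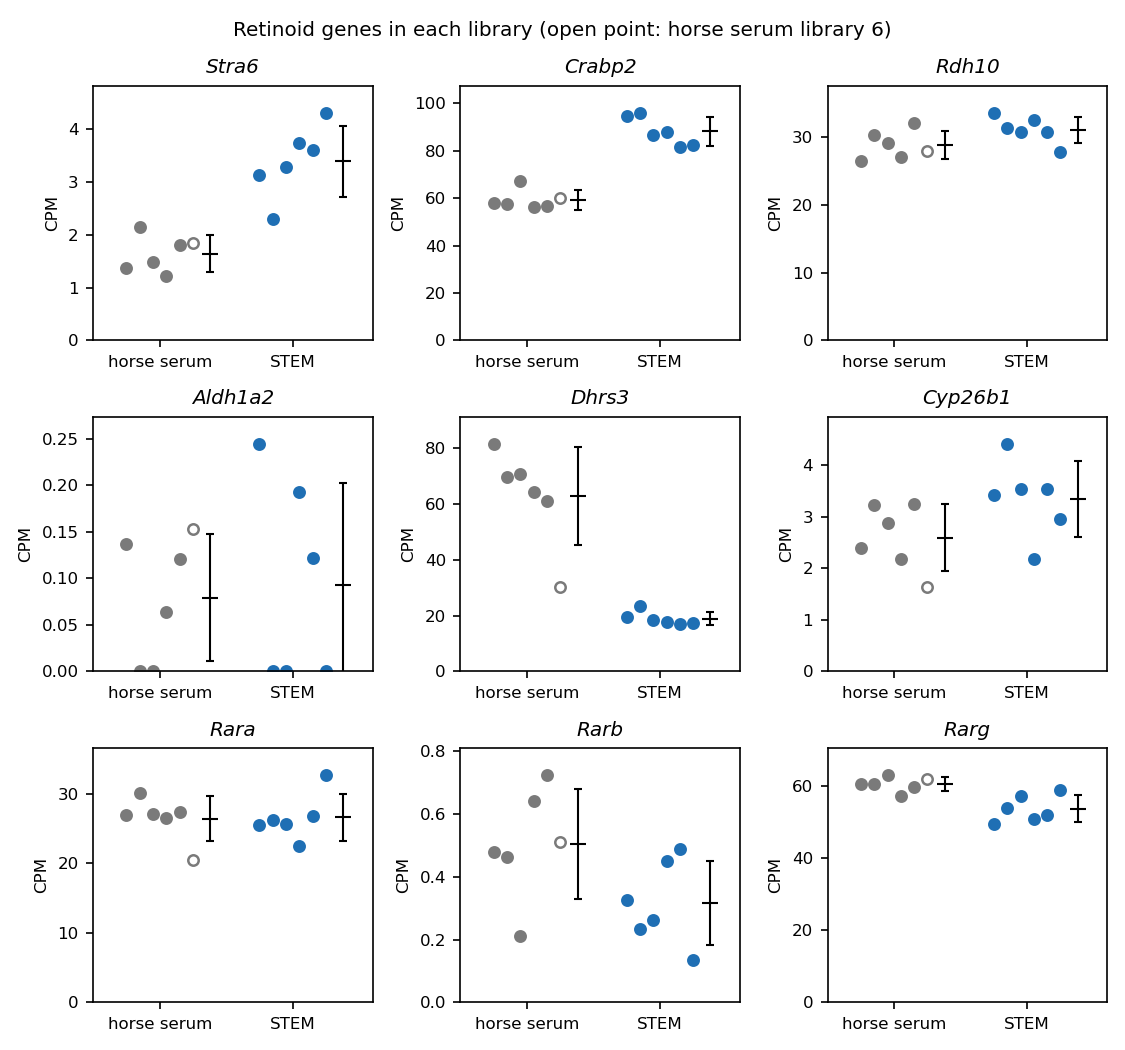
Level of each of the 9 genes in every library, in CPM on axes that start at 0, with horse serum in grey and STEM in blue. Points are libraries, the open point is horse serum library 6, and bars give the mean and SD of 6 libraries. Stra6 and Crabp2 lie wholly higher and Dhrs3 wholly lower with STEM, while Rara, Rdh10 and Cyp26b1 overlap.

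Stra6 (ENSMUSG00000032327, GRCm38 chr9:58063788-58153996, plus strand) encodes the cell surface receptor through which retinol enters from its binding protein in blood. In the horse serum libraries it ranged from 1.22 to 2.16 CPM with a median of 1.64, and in the STEM libraries from 2.29 to 4.30 CPM with a median of 3.44. Every STEM library was above every horse serum library, although the counts behind these values were low, 19 to 36 per horse serum library and 39 to 77 per STEM library. The mean level was 1.65 ± 0.35 CPM in horse serum and 3.39 ± 0.68 CPM in STEM (SD, n = 6 each). This was a 2.05-fold rise, with a log2 fold change of 1.03 and a standard error of 0.18 (adjusted p = 0.000366, edgeR). It was the largest rise among the 7 tested genes, and on the scale of CPM per kb its mean was the lowest of those 7 in both groups, with libraries that overlapped those of Cyp26b1.

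Crabp2 (ENSMUSG00000004885, chr3:87948666-87953376, plus strand) encodes a small cytosolic protein that carries retinoic acid to its receptors in the nucleus. It was measured at 56.1 to 67.3 CPM with a median of 57.7 in horse serum and at 81.5 to 95.8 CPM with a median of 87.3 in STEM. The groups were well separated, and the spread within each was small. Its mean rose from 59.2 ± 4.15 CPM to 88.1 ± 5.98 CPM (SD, n = 6 each), a 1.49-fold difference. The log2 fold change was 0.57 with a standard error of 0.057 (adjusted p = 3.34e-06, edgeR).

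Rdh10 (ENSMUSG00000025921, chr1:16105774-16133734, plus strand) encodes the main retinol dehydrogenase, which oxidizes retinol to retinaldehyde in the first step toward retinoic acid. Its level ran from 26.6 to 32.1 CPM with a median of 28.6 in horse serum and from 27.9 to 33.6 CPM with a median of 31.1 in STEM. The ranges overlapped over most of their width. The log2 fold change was 0.11 with a 95% interval from -0.02 to 0.24, which did not pass the test (adjusted p = 0.178, edgeR).

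Aldh1a2 (ENSMUSG00000013584, chr9:71215789-71296243, plus strand) encodes the retinaldehyde dehydrogenase that makes retinoic acid in much of the embryo. It had 0 to 3 counts per horse serum library and 0 to 6 counts per STEM library and was not tested. Counts of 3 or fewer were treated as the floor of detection, so its level was at or near that floor in both groups and no fold is given.

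Dhrs3 (ENSMUSG00000066026, chr4:144892827-144928209, plus strand) encodes the reductase that returns retinaldehyde to retinol and so opposes Rdh10, and it is a textbook gene induced by retinoic acid. It ranged from 30.1 to 81.4 CPM with a median of 66.9 in horse serum and from 17.1 to 23.6 CPM with a median of 18.2 in STEM. All STEM libraries lay below all horse serum libraries, and the horse serum library nearest to them was library 6, the others lying between 61.2 and 81.4 CPM. The mean was 62.9 ± 17.5 CPM in horse serum and 18.9 ± 2.42 CPM in STEM (SD, n = 6 each). Dhrs3 was thus 3.31-fold lower with STEM, the largest difference among the 7 tested genes, with a log2 fold change of -1.73 and a standard error of 0.19 (adjusted p = 3.08e-05, edgeR). Without library 6 it was 3.65-fold lower, with a log2 fold change of -1.87 and a standard error of 0.085. The lower myotube markers of library 6 moved with its lower Dhrs3 level. Between the groups Myh8 and Casq2 moved with Dhrs3, at log2 fold changes of -1.25 and -0.87 (-1.48 and -1.05 without library 6). Among all 12 markers, 3 were called lower, 1 higher and 8 neither, against 7, 1 and 4 without library 6. Myh3, Ckm and Ttn, at 0.30, 0.27 and 0.22 with all libraries, were not called. The part of these markers in the Dhrs3 result was not tested.

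Cyp26b1 (ENSMUSG00000063415, chr6:84571414-84593908, minus strand) encodes a cytochrome P450 that hydroxylates retinoic acid and so clears it. In horse serum its level ran from 1.64 to 3.26 CPM with a median of 2.64, and in STEM from 2.19 to 4.41 CPM with a median of 3.48. Of the STEM libraries, 4 of 6 lay above all horse serum libraries, and the lowest horse serum value was that of library 6. The mean was 2.60 ± 0.64 CPM in horse serum and 3.35 ± 0.74 CPM in STEM (SD, n = 6 each). The log2 fold change was 0.38 with a 95% interval from -0.03 to 0.79 and did not pass the test (adjusted p = 0.135, edgeR). Without library 6 it was 0.27.

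The 3 retinoic acid receptors behaved differently from each other in level and in spread. Rarg (ENSMUSG00000001288, chr15:102234938-102257517, minus strand) ranged from 57.4 to 63.1 CPM with a median of 60.8 in horse serum and from 49.5 to 59.0 CPM with a median of 53.1 in STEM. Of the STEM libraries, 4 of 6 lay below every horse serum library and the other two lay inside the horse serum range. Rarg fell from 60.7 ± 1.99 CPM to 53.8 ± 3.76 CPM (SD, n = 6 each), which was 1.13-fold. Its log2 fold change of -0.17 had a standard error of 0.051 (adjusted p = 0.0144, edgeR).

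Rara (ENSMUSG00000037992, chr11:98927818-98974942, plus strand) was measured at 20.5 to 30.1 CPM with a median of 27.0 in horse serum and at 22.6 to 32.7 CPM with a median of 26.0 in STEM. The groups overlapped, and the lowest value was again that of horse serum library 6. Its log2 fold change was 0.01 with a 95% interval from -0.19 to 0.21 (adjusted p = 0.938, edgeR), and without library 6 it was -0.05, so no direction is given.

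Rarb (ENSMUSG00000017491, chr14:16430839-16819156, minus strand), the receptor gene whose promoter holds the direct repeat shown above, had only 3 to 12 counts per horse serum library and 2 to 8 per STEM library. It reached 0.50 ± 0.18 CPM in horse serum and 0.32 ± 0.13 CPM in STEM (SD, n = 6 each), with overlapping libraries, and did not pass the filter. When no filter was applied, its log2 fold change was -0.68 (adjusted p = 0.272, edgeR). Exons of Rarb share 1793 bases with Top2b and 227 with Gm48162, both on the opposite strand, and the strand setting of the counting is not given in the sources used here, so reads from these bases cannot be assigned with certainty.

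**Figure D2:**
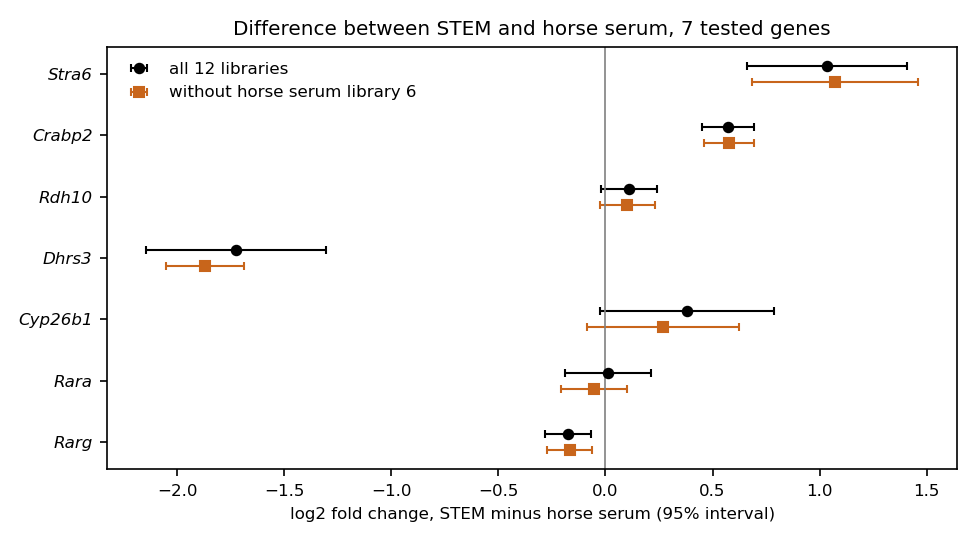
Log2 fold change of the 7 tested genes, STEM minus horse serum, with 95% intervals from edgeR, from all 12 libraries (circles) and without horse serum library 6 (squares). The intervals of Stra6, Crabp2, Dhrs3 and Rarg leave out 0 in both fits, and that of Dhrs3 narrows without library 6, where its standard error is 0.085 in place of 0.19.

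The levels per length placed Crabp2 first in both groups. With horse serum, the mean CPM per kb was 44.8 for Crabp2, 21.5 for Dhrs3, 14.2 for Rarg, 6.94 for Rdh10, 6.06 for Rara, 0.49 for Cyp26b1, 0.28 for Stra6, 0.096 for Rarb and 0.035 for Aldh1a2. Neighbours in this order whose libraries overlapped were Dhrs3 and Rarg, Rdh10 and Rara, Cyp26b1 and Stra6, and Rarb and Aldh1a2. Without library 6, Dhrs3 and Rarg no longer overlapped, and neither did Cyp26b1 and Stra6. With STEM, the mean CPM per kb was 66.6 for Crabp2, 12.6 for Rarg, 7.49 for Rdh10, 6.47 for Dhrs3, 6.10 for Rara, 0.63 for Cyp26b1, 0.58 for Stra6, 0.060 for Rarb and 0.041 for Aldh1a2. Dhrs3 moved from the second place to the fourth, where its libraries overlapped those of both Rdh10 and Rara. Cyp26b1 and Stra6 again overlapped, as did Rarb and Aldh1a2. The carrier of retinoic acid was thus the most abundant of these transcripts, and the enzyme Aldh1a2 was near the floor.

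**Figure D3:**
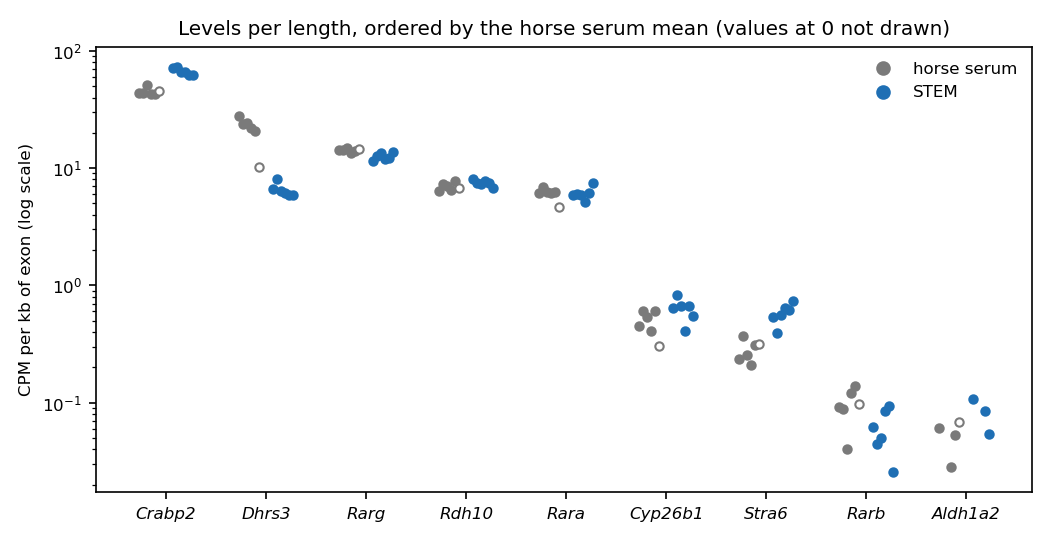
Level per exon length of the 9 genes in every library, on a log scale, ordered by the horse serum mean, with horse serum in grey, STEM in blue and horse serum library 6 as the open point. Libraries of Aldh1a2 at 0 are not drawn. Dhrs3 lies above Rarg in 5 horse serum libraries and near Rdh10 and Rara with STEM.

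Rarg was the leading receptor transcript in every library. Of the summed CPM per kb of the 3 retinoic acid receptors, Rarg made up 69.9 ± 2.87% with horse serum and 67.3 ± 1.89% with STEM (SD, n = 6 each). The share of Rara was 29.6 ± 2.85% and 32.4 ± 1.95%, and that of Rarb was 0.47% and 0.33%. The libraries of the groups overlapped for all 3 shares.

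Ratios within a library do not depend on the scaling between libraries. The ratio of Dhrs3 to Rdh10, the enzymes that run the step between retinol and retinaldehyde in opposite directions, was 1.53 to 4.36 in horse serum, with a median of 3.31, and 0.78 to 1.07 in STEM, with a median of 0.84, in CPM per kb. The groups did not overlap, and the lowest horse serum ratio was that of library 6, the others lying between 2.71 and 4.36. The ratio of transcripts is not a ratio of enzyme activities, which were not measured. Crabp2 was also set against Fabp5, which encodes a fatty acid carrier that can bind retinoic acid as well. The ratio of Crabp2 to Fabp5 was 5.77 to 10.1 in horse serum, with a median of 8.06, and 32.9 to 40.4 in STEM, with a median of 36.1, again without overlap.

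**Figure D4:**
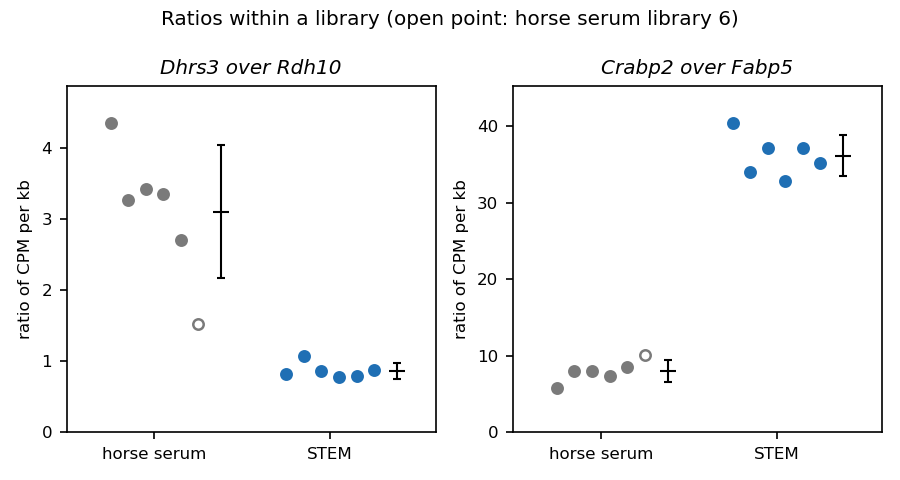
Ratio of Dhrs3 to Rdh10 (left) and of Crabp2 to Fabp5 (right) in every library, from CPM per kb, with the mean and SD of 6 libraries and horse serum library 6 as the open point. The first ratio stays at 1.07 or below with STEM, and the second lies between 32.9 and 40.4 with STEM against at most 10.1 with horse serum.

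The other genes of the pathway were examined as 5 lists, of which some genes stand on more than one list. Over all tested genes, 18.9% were called higher and 17.4% lower. Of 11 further genes of uptake, storage and carriage, 2 were tested, and 1 was higher and 1 was lower, with a median log2 fold change of -0.75 beside 0.01 over all tested genes. Fabp5 fell from 20.5 ± 3.90 CPM to 6.61 ± 0.64 CPM (SD, n = 6 each), with a log2 fold change of -1.63 and a standard error of 0.12 (adjusted p = 2.16e-07, edgeR). Dgat1, an acyltransferase that can esterify retinol, had a log2 fold change of 0.13 (adjusted p = 0.0462, edgeR), a call that was lost in 10 of 12 fits that each left out 1 library. Ttr, Rbp2 and Lrat had 0 counts in all libraries. Crabp1, the second cellular carrier of retinoic acid, was named after its values were seen and failed the filter, with 4 to 18 counts per horse serum library and 1 or 2 per STEM library. With each STEM library set to 3 counts, its level was at least 3.58-fold lower with STEM, and the unfiltered fit gave an adjusted p of 1.61e-05 (edgeR).

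Of 17 further dehydrogenases and reductases, 10 were tested, of which 3 were higher, 2 were lower and 5 did not pass, with a median log2 fold change of 0.12. Aldh1a3, another retinaldehyde dehydrogenase that makes retinoic acid, ran from 2.81 to 5.68 CPM in horse serum and from 15.9 to 21.4 CPM in STEM, without overlap. It rose from 4.76 ± 1.07 CPM to 18.5 ± 2.01 CPM (SD, n = 6 each), which was 3.88-fold (log2 fold change 1.95, standard error 0.13, adjusted p = 1.45e-07, edgeR). Aldh1a1, the third enzyme of this kind, had at most 1 count in any library, so that Aldh1a3 was the only one of the Aldh1a1, Aldh1a2 and Aldh1a3 genes to pass the filter. Rdh11, a retinaldehyde reductase, fell from 72.1 ± 4.06 CPM to 55.9 ± 2.01 CPM (SD, n = 6 each), a change of -0.37 on the log2 scale without overlap (adjusted p = 3.15e-05, edgeR). Rdh13, a mitochondrial member of the same family, rose from 19.6 ± 1.62 CPM to 25.7 ± 1.86 CPM (SD, n = 6 each), a log2 fold change of 0.39, also without overlap (adjusted p = 0.00048, edgeR). The remaining 2 calls, Dhrs9 higher and Rdh14 lower, were lost in 7 and 9 of the 12 fits that each left out 1 library, and both genes are named after their values were seen. Dhrs9 passed the filter through the STEM libraries, where it was higher. Without horse serum library 6, Dhrs9 was lost (adjusted p = 0.0706, edgeR) and Adh7 was called (adjusted p = 0.0172, edgeR).

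Of 3 further genes of retinoic acid breakdown, only Cyp26a1 was tested. Cyp26a1, a close relative of Cyp26b1 and a textbook target of retinoic acid, had 6 to 29 counts per horse serum library and 24 to 37 per STEM library, and it passed the filter through the STEM libraries. It rose from 0.82 ± 0.63 CPM to 1.76 ± 0.41 CPM (SD, n = 6 each), with overlapping libraries, a log2 fold change of 1.13 and a standard error of 0.35 (adjusted p = 0.0203, edgeR). The overlap came from horse serum library 3, at 2.04 CPM where the others lay between 0.39 and 0.89 CPM, and without that library the rise was 3.09-fold in place of 2.19-fold. The ratio of Cyp26b1 to Cyp26a1 overlapped between the groups.

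Of 21 retinoid X receptors, other partner receptors and cofactors, 18 were tested, of which 2 were higher, 5 were lower and 11 did not pass, with a median log2 fold change of 0.03. Rxra was measured at 45.1 ± 4.13 CPM and 45.4 ± 2.00 CPM (SD, n = 6 each), and its log2 fold change of 0.01 had a 95% interval from -0.12 to 0.14 (adjusted p = 0.934, edgeR). Rxrb was measured at 47.1 ± 3.15 CPM and 43.0 ± 3.27 CPM (SD, n = 6 each), with a log2 fold change of -0.13 (adjusted p = 0.11, edgeR), and Rxrg had at most 1 count per library. Pparg, a fatty acid receptor that pairs with the retinoid X receptors, fell from 12.3 ± 1.80 CPM to 6.86 ± 0.50 CPM (SD, n = 6 each), a log2 fold change of -0.84 without overlap (adjusted p = 2.13e-05, edgeR). Pparg is also 1 of 6 adipocyte markers, whose summed level was 35.4 to 48.3 CPM in horse serum and 27.0 to 31.9 CPM in STEM, without overlap. Nearly all of this sum was Pparg and Cebpa, the latter at 26.8 ± 5.91 CPM and 22.3 ± 1.38 CPM (SD, n = 6 each) and not called, while Plin1 and Cidec had 0 counts, Adipoq at most 1 and Fabp4 at most 4 per library. The part of these markers in the Pparg result was not tested. Tbl1xr1, a corepressor subunit, and Nr1h2, an oxysterol receptor, fell by 0.29 and 0.31 on the log2 scale (adjusted p = 3.49e-05 and 0.0021, edgeR). Without horse serum library 6 the counts were 5 higher and 6 lower, beside 50.8% of all genes then tested called in either direction. Ncoa1, Med1 and Nr1h3 were added to the higher genes and Rxrb to the lower ones, at log2 fold changes of 0.19, 0.19, 0.71 and -0.16. These were named after their values were seen.

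Of 33 genes that retinoic acid is known to induce in other settings, 15 were tested and 9 had 0 counts in all libraries, among them Stra8 and Hoxb1. Of the 15 genes, 3 were higher, 3 were lower and 9 did not pass, with a median log2 fold change of -0.13. The share called in either direction over all tested genes was 36.4%. Tgm2, a transglutaminase, rose from 147 ± 19.3 CPM to 191 ± 12.6 CPM (SD, n = 6 each) without overlap, a log2 fold change of 0.38 (adjusted p = 0.00199, edgeR). The homeobox genes Meis2 and Meis1 fell by 0.46 and 0.29 on the log2 scale (adjusted p = 0.000503 and 0.00405, edgeR). The other calls were Cyp26a1 and Rai1 among the higher genes and Ret among the lower ones, with Rai1 and Ret named after their values were seen. Cyp26a1 and Ret each passed the filter only through the group in which they were higher. Cdx1, named after its values were seen, failed the filter, with 0 to 1 count per horse serum library and 0 to 5 per STEM library. Without the filter it was called higher (adjusted p = 0.0129, edgeR). Of the 9 genes, Dhrs3, which is also known to be induced by retinoic acid, fell, while Stra6 and Crabp2 rose. The called genes of this list went both ways, 3 up and 3 down. A response to retinoic acid was not tested.

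**Figure D5:**
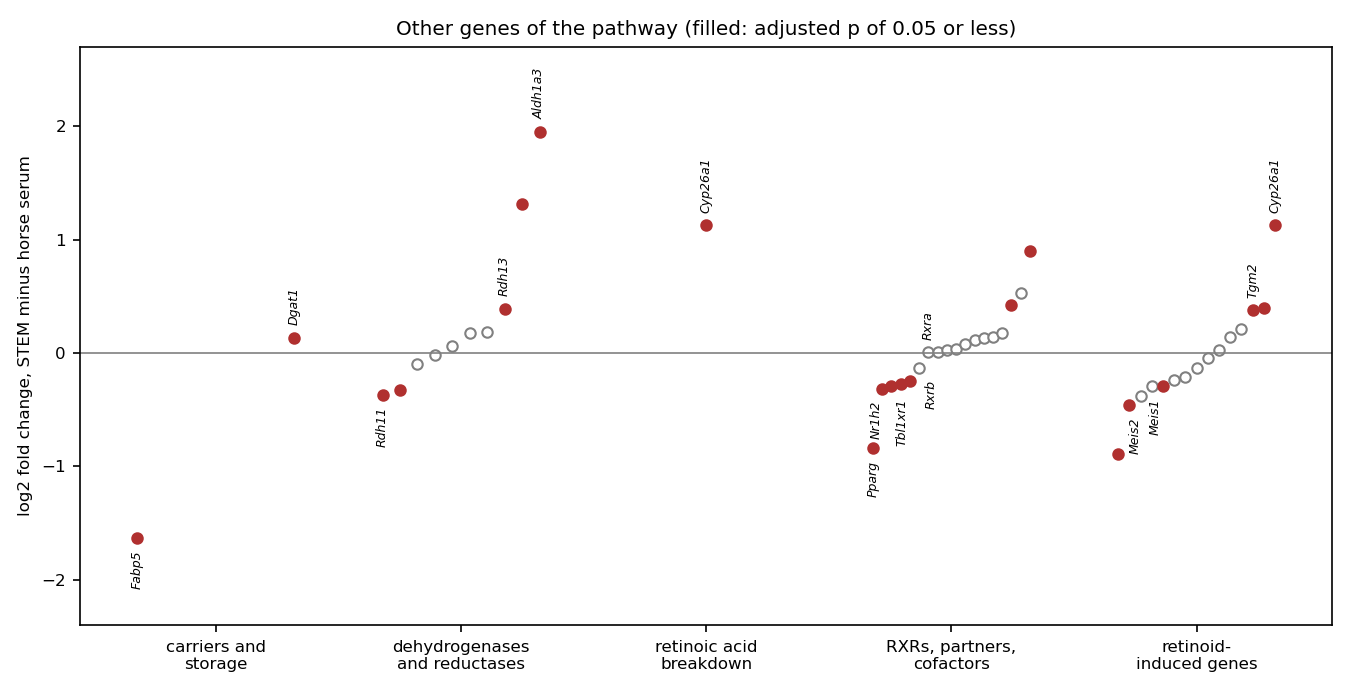
Log2 fold change, STEM minus horse serum, of every tested gene on the 5 pathway lists, ordered by value within a list, with filled points for an adjusted p of 0.05 or less and names for the genes given by the naming rule. Each of the lists with more than 1 tested gene holds genes on both sides of 0, from -1.63 for Fabp5 to 1.95 for Aldh1a3.

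The genes whose pattern over the 12 libraries was most like that of Stra6 and of Dhrs3 were sought among all tested genes, by the root mean square difference of log2 CPM centred on the mean of each gene. For Stra6 these were Inpp5d at 0.19, Adgrg1 at 0.22 and Ucp2 at 0.22, with log2 fold changes of 0.90, 1.05 and 1.17. For Dhrs3 these were Gm37800, a long noncoding RNA, at 0.19, Gm11243, a processed pseudogene, at 0.21, and Rcan2 at 0.21, with log2 fold changes of -1.98, -1.82 and -1.33. Gm11243 can share reads with the gene it was copied from. The measure says nothing of shared control.

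Markers of other cells were also read beside these results. The summed level of markers of undifferentiated or dividing myoblasts was 699 to 1066 CPM with horse serum and 596 to 679 CPM with STEM, without overlap. Of these 9 markers, 4 were called lower (Myf5, Mki67, Top2a and Cdk1) and 2 higher (Id1 and Id3). Of 9 fibroblast markers 6 were tested and 3 were called higher, Pi16 at 7.10-fold, Dpt at 2.14-fold and Col1a1 at 1.64-fold, and without library 6 there were 4, with Pdgfra added. Pi16 passed the filter through the STEM libraries. The summed fibroblast level of 5967 to 7018 CPM and 6578 to 7655 CPM overlapped and was mostly Col3a1, and Lum, Thy1 and Tcf21 were at 3 counts or fewer in every library. Of 8 macrophage markers, with a summed level of 3.17 to 5.54 CPM and 4.71 to 6.18 CPM, Cd68 alone was tested and was not called (adjusted p = 0.61, edgeR). Csf1r, at 0.29 ± 0.20 CPM and 0.91 ± 0.31 CPM (SD, n = 6 each), failed the filter, but it was called higher without the filter (adjusted p = 0.000729, edgeR) and without library 6 (adjusted p = 0.00234, edgeR). Adgre1 was at 0 in all libraries, and Ptprc, Aif1 and Lyz2 were at 3 counts or fewer. The endothelial markers summed to 0.352 to 0.784 CPM with horse serum and 0.407 to 0.9997 CPM with STEM, with Kdr and Emcn at 0. Of 6 osteoblast markers, with a summed level of 19.6 to 31.1 CPM and 21.8 to 41.9 CPM, Runx2 and Dmp1 were tested and neither was called, while Runx2 was called higher without library 6 (adjusted p = 0.0305, edgeR). Ibsp was at 0 in all libraries. Of 5 neural markers, Tubb3 rose 8.60-fold without overlap (adjusted p = 9.54e-06, edgeR) and Nes was not called, with a summed level of 1556 to 1726 CPM and 1336 to 1766 CPM that was nearly all Nes, and with Sox2 at 0. The part of these markers in the changes of Stra6, Crabp2, Dhrs3 and Rarg was not tested.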

How the data were processed

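The authors deposited raw counts of reads per Ensembl gene for 12 libraries of C2C12 myotubes, 6 per group, from stranded total RNA depleted of ribosomal RNA. The submitters' processing notes list STAR 2.7.3a, featureCounts 1.6.3, DESeq2 1.26.0 and GRCm38, and the strand setting of the counting is not given in the sources used here. No deposited row lacked a gene identifier. Symbols came from GENCODE M21, which held 55227 of 55487 listed genes, and exon lengths were merged over transcripts. Libraries were grouped by their labels. RNA was collected per well, but the sources used here do not say which libraries are separate wells or cultures, so p-values measure the spread between libraries, which may be technical. No pair within a group was as close as a repeat deposit.

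Counts were tested with edgeR 4.0.16 in R 4.3.3 (TMM, filterByExpr with a minimum count of 10, robust glmQLFit, glmQLFTest), which kept 14175 genes. The Benjamini-Hochberg adjustment ran over all tested genes. Calls were made at an adjusted p of 0.05 or below. Log2 CPM used a prior count of 2. Alternatives were 3 other scalings, 2 other filters, DESeq2 1.42.0, limma-voom (limma 3.58.1), thinning to the lowest total and leaving out each library. The fit was tested on simulated data. Of the lists, 1 gene is not reported here.

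The 9 genes and all lists were chosen with earlier results of these data known. Named are all 9 genes, at most 3 called genes with the lowest p-values per pathway list, the retinoid X receptors, and the 3 genes most like the genes with the largest rise and fall. Genes outside this rule were chosen after their values were seen, as were the hexamers GGGTCA and GGTTCA.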

Additional observations from a re-analysis of the deposited data

Results flagged for a closer look

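Of 48 groups of 6 libraries checked (24 genes in each of both media), 5 held a library whose gap to the nearest other exceeded the 95% critical value of Dixon's test, and chance alone marks about 1 group in 20. Dhrs3 reached 23.6 CPM in STEM library 8, above the other STEM libraries at 17.1 to 19.3 CPM, and still below all horse serum libraries. Crabp2 reached 67.3 CPM in horse serum library 3, where the others lay at 56.1 to 59.9 CPM, and still below all STEM libraries. Rara was at 20.5 CPM in horse serum library 6, below the others at 26.6 to 30.1 CPM. Cyp26a1 was at 2.04 CPM in horse serum library 3, above the others at 0.39 to 0.89 CPM. Nr1h2 was at 44.1 CPM in horse serum library 6, below the others at 51.5 to 55.8 CPM.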

How the results depend on the processing

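The log2 fold changes of the 7 tested genes were recomputed under 20 alternatives. Of these 140 values, 137 kept their direction and their side of the threshold. The other 3 belonged to Rara, which was at -0.01 with upper quartile scaling and between -0.055 and 0.054 with each library left out. Stra6, Crabp2, Dhrs3 and Rarg were called under all 20, at 0.96 to 1.13, 0.54 to 0.61, -1.87 to -1.64 and -0.20 to -0.15. The scalings moved the median of all tested genes by at most 0.0202. On the list of uptake, storage and carriage, the number of genes called higher was 0 in place of 1 under the 3 other scalings, both other filters, DESeq2 and thinning, and 0 to 1 with a library left out, and the number called lower was 2 in place of 1 without a filter and with DESeq2, where Crabp1 was added. Dehydrogenases called lower numbered 1 in place of 2 without a filter and with limma-voom, and 1 to 2 with a library left out. Those called higher numbered 4 in place of 3 with scaling by total counts only, and 2 with both other filters and limma-voom. With a library left out they numbered 2 to 4. Retinoid-induced genes called higher numbered 4 in place of 3 without a filter, where Cdx1 was added. With at least 10 counts in every library, 2 retinoid-induced genes were called higher and 2 lower. Genes of breakdown called higher numbered 0 with at least 10 counts in every library, since Cyp26a1 was then not tested. Partner receptors and cofactors called higher numbered 2 to 5 with a library left out. With the length of the longest transcript, the receptor shares with STEM were 29.96% for Rara and 69.64% for Rarg, and Stra6 ranked above Cyp26b1 with STEM, as it did without STEM library 8. With that length and without horse serum library 6, Cyp26b1 and Stra6 still overlapped in horse serum. Rara then ranked above Rdh10, with overlapping libraries. Depth limits Rarb and Aldh1a2, which were not called in the fits without a filter. No paired analysis was run, because the labels do not say whether libraries of the 2 groups were matched.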
